A study of Sorghum bicolor with 9 samples.

Results

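Argonaute and DNA methyltransferase transcripts of sorghum anthers are described here through 4 genes that the study names for these roles, the orthologs of rice OsAGO4a (Sobic.003G129500.v3.1), OsAGO4b (Sobic.009G259900.v3.1) and OsAGO18 (Sobic.001G153600.v3.1) and of Arabidopsis MET1 (Sobic.002G056000.v3.1). They were picked by their gene IDs, each of which belongs to exactly 1 locus of the expression table, out of 40082 loci in all, 33115 of them with a gene ID. Of the loci with an ID, 30776 exceeded 0 in at least 1 stage and are called expressed loci below. The study had already found the 4 genes differentially expressed by its own test between stages, and had placed them in a group that declines in mature pollen anthers. The direction of that decline is thus not independent evidence.

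RNA came from whole anthers of Sorghum bicolor variety M35-1, with 3 libraries per stage and 9 in all. Stage A1 (meiotic to tetrad) held meiocytes and tetrads, stage A2 (microspore) held microspores and stage A3 (pollen) held mature pollen. The plants were of a single variety and carried no treatment or mutation, and anthers were assigned to a stage by their length. Each value is an FPKM (fragments per kilobase of transcript scaled to library size), a level that accounts for gene length, with the 3 replicates of a stage combined into 1 number by the authors. The differences between stages given below thus carry no replicate error and no test, and the reads behind each value are unknown.

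Argonaute proteins hold a small RNA and use it to find matching transcripts or chromatin. Those of the AGO4 type take up small interfering RNAs and guide DNA methylation to transposons and repeats, in the pathway known as RNA-directed DNA methylation. AGO18 is a grass argonaute, studied in rice and maize, that is found in reproductive tissue, where anthers make large amounts of phased small interfering RNAs. MET1 is the methyltransferase that copies CG methylation onto new DNA after replication.

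Summed levels of marker genes differed between the anther stages, although 0 of the 7 meiosis genes reached 2-fold between A1 and A2. Among these 7, the ZEP1 ortholog Sobic.001G415800, at 0.444 FPKM in A1, was too low to be called lower by the fold rule given below. The 5 pollen genes fixed as markers summed to 0.767 FPKM in A1, 0.581 in A2, where 3 of them were listed at 0, and 279 in A3. The 6 tapetum genes, markers of the nursing layer of the anther wall, summed to 895 FPKM at A1, 2129 at A2 and 133 at A3, and the 7 meiosis genes to 195, 151 and 59.7 FPKM. The markers were taken from genes that the study lists by function among those differentially expressed in the same samples. A difference between stages was thus fixed by their selection. Another 15 genes that the study links to meiosis were added after the data were seen. By 2-fold or more, 12 were lower and 3 higher in A3 than in A1, beside 12.6% and 17.4% of expressed loci. They too were listed as differentially expressed, so their changing is fixed by selection, but their directions were not all the same. Library descriptions carry 2 project codes, here a and b. Stages A1 and A2 each had 2 libraries under code a and 1 under code b, and all 3 A3 libraries were under code b. The split was thus the same in A1 and A2. In comparisons with A3, which include the decline described below, code and stage cannot be told apart for a single gene after the combination of replicates.

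RNA of all 4 genes was detected in every stage, at nearly the same level in A1 and A2, and all were lowest in A3. The fall in A3 was mild for the OsAGO4b ortholog and steep for the OsAGO18 and MET1 orthologs. Fold values were computed after adding 0.5 FPKM, and a locus was called higher or lower at a fold of 2, which is 1 on the log2 scale.

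Sobic.003G129500.v3.1, the OsAGO4a ortholog, was the most abundant of the 4 genes in each stage. It had 328 FPKM at A1, 305 at A2 and 60.3 at A3. The value in A1 was higher than that of 99.3% of expressed loci (rank 223), that in A2 higher than 99.3% (rank 228) and that in A3 still higher than 93.5% (rank 2014). Its A3 value was 5.41-fold lower than A1 (log2 of -2.43) and 5.02-fold lower than A2, whereas the log2 of A2 over A1 was -0.11. The locus lies on chromosome 3 from 12107926 to 12117384 in genome version v3.0.1.

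Sobic.009G259900.v3.1, the OsAGO4b ortholog, had 77.0 FPKM at A1, 66.8 at A2 and 26.8 at A3. The log2 of A2 over A1 was -0.20, and A3 was 2.84-fold lower than A1 and 2.46-fold lower than A2. This was the smallest decline of the 4 genes, and 34.8% of the A1 level was left in A3, where the gene exceeded 84.6% of expressed loci. The table places it on chromosome 9 from 59320881 to 59330173, an interval that it shares in full with a second locus, Sobic.009G260000. That locus had 2.48 FPKM at A1, 3.52 at A2 and 3.84 at A3, so it was low and did not decline. Whether strand was used in assigning reads to the pair is not given in the sources used here, and the split between them is uncertain.

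The 2 genes of the AGO4 type thus differed in level and in course. In A1 the OsAGO4a ortholog was at 4.26 times the FPKM of the OsAGO4b ortholog and in A2 at 4.56 times, but in A3 at 2.25 times. The log2 of A3 over A1 was lower for the OsAGO4a than for the OsAGO4b ortholog by a difference of -0.93. With 1 value per stage it cannot be said whether this difference exceeds the spread between replicates.

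Sobic.001G153600.v3.1, the OsAGO18 ortholog, was the only one of the 4 with a value in A2 at or above that in A1. It had 74.7 FPKM at A1, 76.0 at A2 and 7.65 at A3. The log2 of A2 over A1 was 0.02, and A3 was 9.22-fold lower than A1 and 9.38-fold lower than A2. In A1 and A2 it stood beside the OsAGO4b ortholog, at 0.969 times its level in A1 and 1.14 times in A2, and in A3 it was at 0.285 times. The order of these 2 genes in A1 and A2 thus changed with the stage, at differences too small to rank without replicates. The gene fell to rank 10566 in A3, against rank 1354 in A2 and rank 1420 in A1. It lies on chromosome 1 from 12347242 to 12352925.

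Sobic.002G056000.v3.1, the MET1 ortholog, was the least abundant of the 4 genes. It had 17.5 FPKM at A1, 14.3 at A2 and 1.62 at A3, where it was below the median of expressed loci, which was 1.61 FPKM at A1, 1.78 at A2 and 2.17 at A3. The 3 argonaute genes were above that median in A3, but among loci with a mean of at least 1 FPKM the OsAGO18 ortholog exceeded 42.5% and the MET1 ortholog 13.5% in A3, so both were then in the lower part. The log2 of A2 over A1 was -0.28, the lowest of the 4 genes, the log2 of A3 over A2 was -2.81, and A3 was 8.50-fold lower than A1. Without the added 0.5 FPKM, 9.25% of the A1 level of MET1 was left in A3, against 10.2% for the OsAGO18 ortholog and 18.4% for the OsAGO4a ortholog. Which of the MET1 and OsAGO18 orthologs declined most from A1 depends on the added value, since the log2 of A3 over A1 was -3.09 for MET1 and -3.20 for OsAGO18 with 0.5 FPKM added, and -3.36 for MET1 and -3.27 for OsAGO18 with 0.1 FPKM added. The locus spans 13320 bases on chromosome 2, from 5374521 to 5387840.

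**Figure D1:**
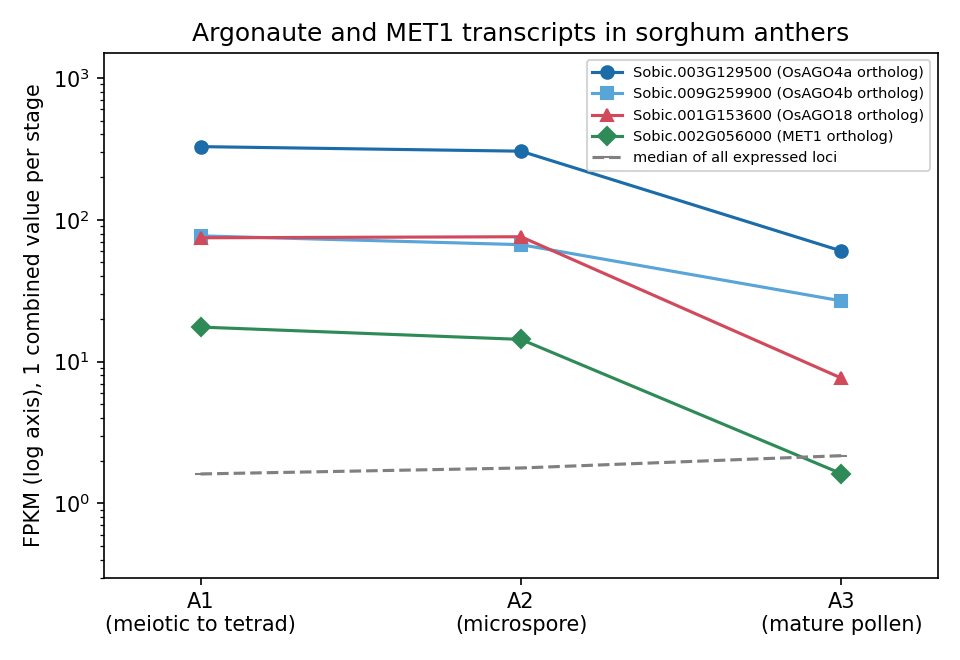
FPKM of the 4 genes in anthers of stages A1, A2 and A3, on a log axis, with 1 combined value per stage and therefore no error bars; the dashed line is the median of the 30776 expressed loci. The 3 argonaute genes stay above this median in every stage, although OsAGO18 exceeds only 42.5% of loci with a mean of at least 1 FPKM in A3, and the MET1 ortholog lies below it in A3, at 1.62 FPKM against 2.17.

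Read against all expressed loci, a decline of at least 2-fold in A3, as in the 4 genes, was shared by a minority. Between A2 and A1, 0 of the 4 genes reached a 2-fold difference, as did few loci at all, with 2.91% higher and 0.741% lower in A2 by that fold. In A3 against A2, all 4 were at least 2-fold lower, against 12.6% of expressed loci lower and 16.5% higher. In A3 against A1, all 4 were likewise lower, with 12.6% of expressed loci lower and 17.4% higher. A level within 2-fold between A1 and A2 followed by at least 2-fold less in A3 than in both was the course of all 4 genes and of 9.65% of expressed loci. These shares are a background and not a test, since the genes were named by the study for this course.

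A background nearer in level to the 4 genes, added after the data were seen, was the 9649 loci with a mean of at least 10 FPKM over the 3 stages, which include all 4. Of these, 18.5% were lower and 18.8% higher in A3 than in A1 by a fold of 2 or more, 16.3% were lower and 17.7% higher in A3 against A2, 0.518% were lower and 3.02% higher in A2 against A1, and 13.9% followed the course of the 4 genes. Their median log2 of A3 over A1 was -0.09, against 0.01 over all expressed loci and -2.76 over the 4 genes. Within these abundant loci, 4.30% had a lower log2 of A3 over A1 than the OsAGO18 ortholog (Sobic.001G153600), 4.49% than the MET1 ortholog (Sobic.002G056000), 5.91% than the OsAGO4a ortholog (Sobic.003G129500) and 10.8% than the OsAGO4b ortholog (Sobic.009G259900).

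**Figure D2:**
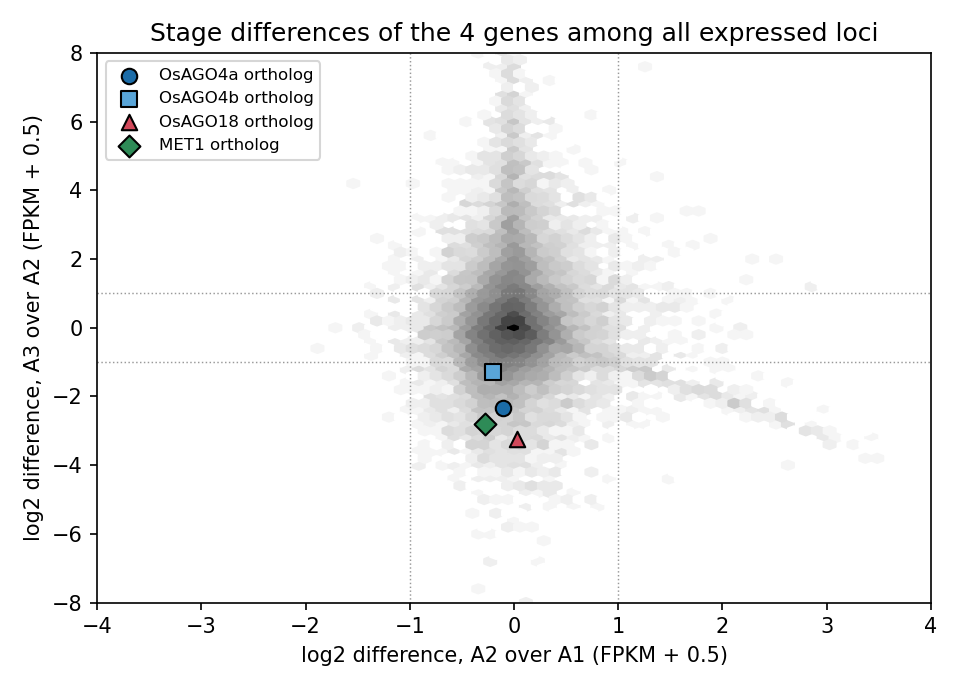
Log2 difference of A2 over A1 (horizontal) and of A3 over A2 (vertical), after adding 0.5 FPKM, for the 4 genes (coloured marks) and all expressed loci (grey, darker where more loci lie, on a log scale of counts); dotted lines mark 2-fold, and 180 loci fall outside the axes. The 4 genes lie near 0 on the horizontal axis, between -0.28 and 0.02, and between -3.23 and -1.30 on the vertical axis.

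An FPKM is relative to the other transcripts of its library. Over all loci the FPKM added up to 638053 at A1, 672303 at A2 and 815871 at A3. Scaling by the median of ratios gave factors of 0.988 for A1, 0.997 for A2 and 1.02 for A3. The median log2 of A3 over A1 over all loci was 0.01 without it, and a value near 0 after it follows from the scaling itself. In whole anthers, fewer cells of a type and less RNA of a gene per cell cannot be told apart, and the tapetum and meiosis marker sums given above fell together with the 4 genes in A3, their part in the decline being not tested. In A2 over A1, the median log2 was 1.43 for the 6 tapetum markers, -0.30 for the meiosis markers and -0.16 for the 4 genes. By 2-fold or more, 4 of the 6 tapetum markers were higher in A2, beside 2.91% of expressed loci. The other tapetum markers, TIP2 and TDR, had a log2 of -0.17 and 0.945. From A1 to A3 the median log2 was -3.53 for the tapetum markers, -1.68 for the meiosis markers and 6.08 for the pollen markers. At least 2-fold lower in A3 were 5 of 6 tapetum and 6 of 7 meiosis markers, beside 12.6% of expressed loci. The remaining meiosis marker, the ZEP1 ortholog Sobic.001G415800, had 0.444 FPKM in A1 and 0.0273 in A3. With 0.5 FPKM added it was too low in A1 to be called lower.

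Among other genes of small RNA and DNA methylation pathways, a dicer gene and both DDM1 matches were lower in A3, and 1 argonaute gene was higher. The list holds the 4 further genes that the part of the study's gene table used here, for chromosomes 1 and 2, puts in the argonaute and dicer classes or matches to DDM1. All are differentially expressed by the study's own criterion, and the list is not a full count of these families in sorghum. Of the 4 genes, 0 reached 2-fold between A2 and A1. Against A1, 3 were lower and 1 higher in A3 by 2-fold or more, and the same numbers held for A3 against A2. Beside 12.6% of expressed loci lower and 17.4% higher in A3 against A1, and among all 1594 genes of that table part 38.2% lower and 55.5% higher, 4 genes selected for a difference between stages are too few to read a direction from.

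Sobic.001G136000, matching rice PINHEAD, an argonaute gene, had 0.0385 FPKM at A1, 0.0631 at A2 and 12.4 at A3. Its log2 of A3 over A1 was 4.59, higher than that of 98.0% of expressed loci. In A3 it was at 1.62 times the FPKM of the OsAGO18 ortholog, whereas in A1 its level was 0.000516 times that of OsAGO18. Together, these 4 argonaute genes summed to 480 FPKM at A1, 447 at A2 and 107 at A3, and their shares of the sum differed by stage. All 4 were listed by the study for a difference between stages, so changed shares follow in part from the selection. The sum is not that of all sorghum argonaute genes. The OsAGO4a ortholog held 68.4% of the sum at A1, 68.1% at A2 and 56.2% at A3. The share of the OsAGO4b ortholog was 16.1%, 14.9% and 25.0% in that order of stages, that of the OsAGO18 ortholog 15.6%, 17.0% and 7.14%, and that of the PINHEAD match 0.00803%, 0.0141% and 11.6%.

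Sobic.001G214000 matches Arabidopsis DCL3, the dicer that there cuts double-stranded RNA into the small interfering RNAs of the AGO4 pathway. Whether the sorghum gene has the same role was not tested. It had 31.5 FPKM at A1, 26.8 at A2 and 0.281 at A3. Of the 8 genes it showed the strongest decline, with a log2 of A3 over A1 of -5.36, a value that the low A3 level leaves between -6.37 and -4.66 by pseudocount and scaling. Only 0.465% of expressed loci had a lower value. The DCL3 match was at 0.0959 times the FPKM of the OsAGO4a ortholog in A1 and at 0.00465 times in A3. In anthers with mature pollen the transcript of the DCL3 match was thus below the median of expressed loci. The OsAGO4a and OsAGO4b orthologs still had 60.3 and 26.8 FPKM there.

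Both genes matching DDM1, a chromatin remodeler that Arabidopsis needs to keep its DNA methylation, were near the MET1 ortholog in level in A1 and A2 and lower in A3, but declined less than it. Sobic.001G109700 had 13.1 FPKM at A1, 10.2 at A2 and 2.68 at A3, and Sobic.002G021200 had 15.6 FPKM at A1, 12.5 at A2 and 2.44 at A3. Their log2 values of A3 over A1 were -2.10 for Sobic.001G109700 and -2.45 for Sobic.002G021200, against -3.09 for the MET1 ortholog. Relative to the MET1 ortholog, Sobic.001G109700 was at 0.749 times its FPKM in A1, 0.713 times in A2 and 1.65 times in A3. For Sobic.002G021200 the ratios to MET1 were 0.890, 0.869 and 1.50 in A1, A2 and A3.

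**Figure D3:**
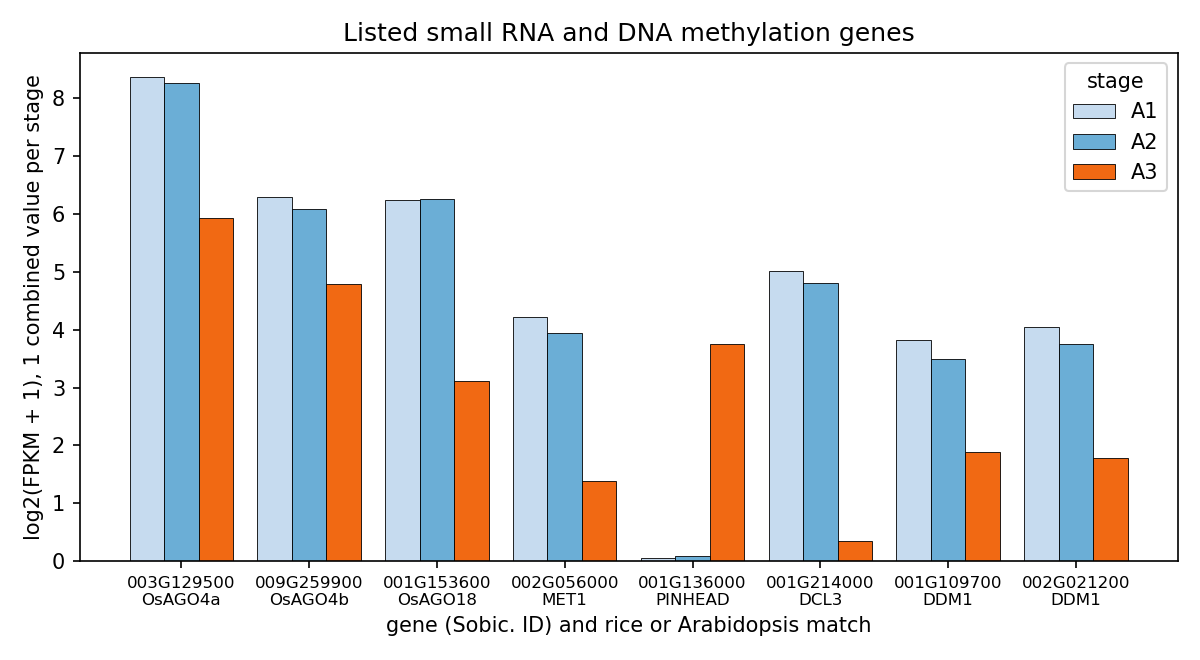
Level of the 4 genes and of the 4 further listed genes, as log2(FPKM + 1), in stages A1, A2 and A3, each bar being 1 combined value. In 7 of the 8 genes the A3 bar is the lowest, and in the PINHEAD match (Sobic.001G136000, 12.4 FPKM in A3) it is the highest.

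From the same gene table, 8 genes of some chromatin classes were taken after the data were seen, both DDM1 matches described above included. The classes were chromatin remodeling factors, SET domain, Polycomb, histone acetyltransferase and histone deacetylase, so this is not a full count of chromatin regulators. Of these, 7 were lower by 2-fold or more in A3 against A1 and 1 was higher, beside 12.6% of expressed loci lower and 17.4% higher and, among the 1594 genes of the same table, 38.2% lower and 55.5% higher. The trithorax-like gene Sobic.002G293700, of a family that methylates histones, had 23.3 FPKM at A1, 25.7 at A2 and 3.11 at A3. The histone deacetylase gene Sobic.002G366400 had 40.3 FPKM at A1, 38.9 at A2 and 15.0 at A3. The exception was Sobic.001G395500, a SET domain gene of the Polycomb class, with 6.33 FPKM at A1, 7.75 at A2 and 29.3 at A3. Every gene of that table passed the study's own test for a difference between stages, so a share of changed genes among them is fixed by the selection.

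Loci around the 4 genes on their chromosomes moved in either direction or stayed within 2-fold. Of the 40 nearest loci with a gene ID, 5 on either side of each gene and 29 of them at 1 FPKM or more in some stage, 6 were lower and 10 higher by 2-fold or more in A3 against A1, beside 12.6% and 17.4% of expressed loci. With 0.5 FPKM added, 15 of the 40 were too low in A1 to be called lower at all. Of the 8 loci directly next to the 4 genes, 3 were too low in this way, and none of the rest was 2-fold lower in A3.

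Beside the OsAGO4a ortholog, Sobic.003G129400 ends 92 bases before its start and had 1.98 FPKM at A1, 2.31 at A2 and 1.62 at A3. On its other side, Sobic.003G129600 had 1.22 FPKM at A1, 0.954 at A2 and 3.27 at A3. Among loci with a gene ID, the abundant OsAGO4a transcript thus lies between 2 scarce ones. Beside the OsAGO4b ortholog, Sobic.009G259800 stayed under 0.03 FPKM in each stage, and Sobic.009G260200 had 7.40 FPKM at A1, 6.68 at A2 and 6.24 at A3.

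The OsAGO18 ortholog lies between Sobic.001G153500, with 0.457 FPKM at A1, 0.609 at A2 and 0.608 at A3, and Sobic.001G153700, with 0.577 FPKM at A1, 0.494 at A2 and 1.23 at A3. The locus after that, the beta-glucosidase gene Sobic.001G153800, starts 9852 bases from the end of the OsAGO18 locus and had 6.33 FPKM at A1, 8.83 at A2 and 512 at A3. It was named after its values were seen, because it moved 75.0-fold higher in A3 than in A1 beside a gene that was 9.22-fold lower.

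Before the MET1 ortholog, the nearest locus with a gene ID, the Aux/IAA gene Sobic.002G055900, lies 51647 bases away and had 22.2 FPKM at A1, 17.9 at A2 and 47.6 at A3. After it, Sobic.002G056100 starts 332 bases away and had 0.113 FPKM at A1, 0.158 at A2 and 0.365 at A3. Farther out, 2 of the 10 neighbours of MET1 were within 2-fold between A1 and A2 and more than 2-fold lower in A3. They were the KU70 homolog Sobic.002G056400, with 18.3 FPKM at A1, 13.6 at A2 and 4.31 at A3, and Sobic.002G055500, with 1.29 FPKM at A1, 2.36 at A2 and 0.0272 at A3, both named after their values were seen.

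**Figure D4:**
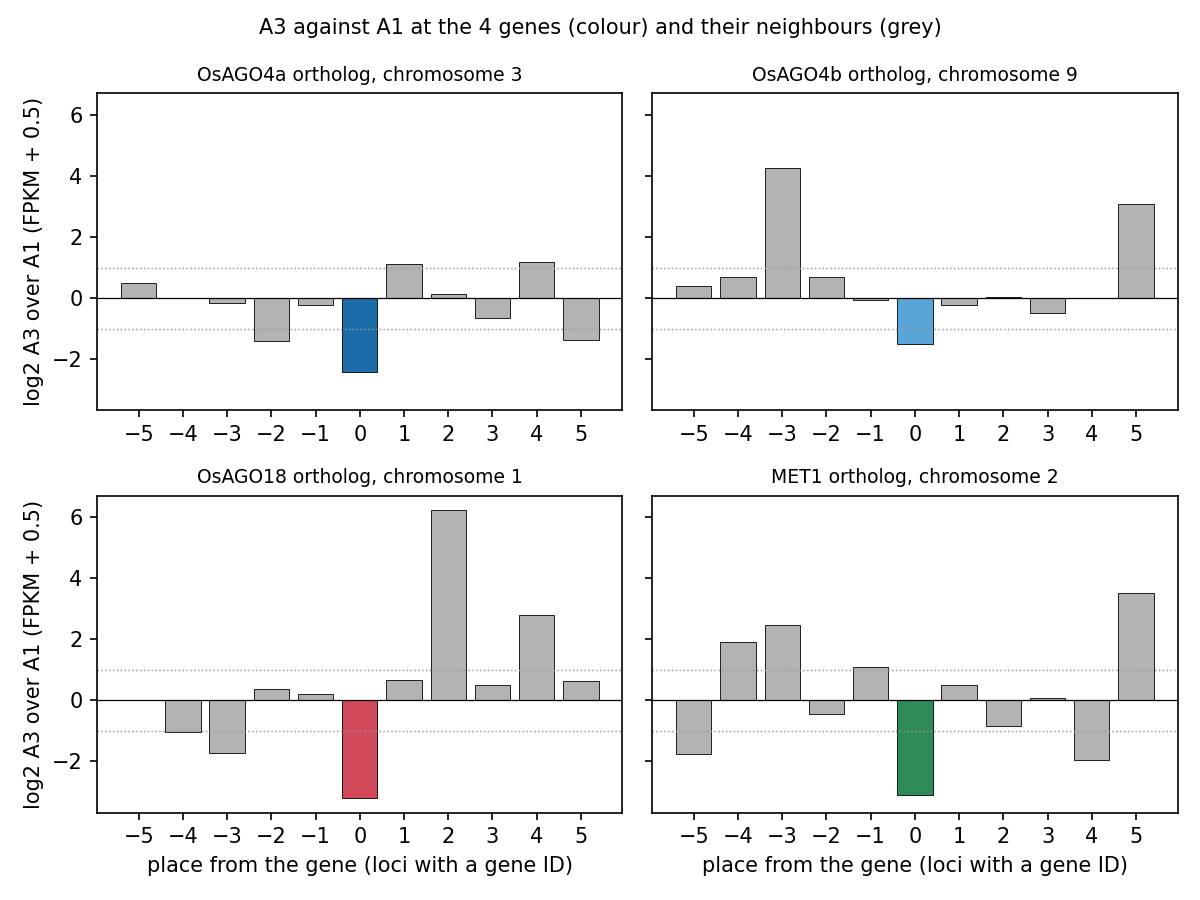
Log2 difference of A3 over A1 (after adding 0.5 FPKM) for each of the 4 genes (coloured bar at 0) and the 5 nearest loci with a gene ID on either side (grey), ordered by position; dotted lines mark 2-fold. The highest grey bar is the beta-glucosidase gene 2 places after the OsAGO18 ortholog, at 6.23, and 6 of the 40 grey bars reach below the lower line.

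Likeness of course was measured as the distance between the 3 log2 values of a gene, each set centred on its own mean, over the 3 stages and the 18381 other loci with a mean of at least 1 FPKM. Smaller distances mean more similar courses, and with only 3 points many loci come close by necessity. The measure depends on the added 0.5 FPKM, most of all for scarce loci, so it was repeated with 0.1 and 1 FPKM added, an alternative chosen after the data were seen. Within a distance of 0.1 there were 159 loci for the OsAGO4b ortholog, 45 for OsAGO4a, 18 for MET1 and 17 for OsAGO18. The course of OsAGO4b was thus the most common of the 4 and those of OsAGO18 and MET1 the least, which also held with 0.1 and 1 FPKM added.

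Which loci came nearest was set largely by the added value. Of the 3 loci nearest to each gene with 0.5 FPKM added, 0 were among the nearest 3 of OsAGO4a, OsAGO18 and MET1 with 0.1 FPKM, and 1 was for OsAGO4b. With 1 FPKM added, 0 were for any of the 4 genes. The WD40 repeat gene Sobic.002G160700, at place 1 in likeness to OsAGO4b with 0.5 FPKM added, place 2 with 0.1 and place 12 with 1, had 26.9 FPKM at A1, 23.2 at A2 and 9.17 at A3. The acyl-activating enzyme gene Sobic.001G049200, at places 2, 5 and 10 in likeness to OsAGO4a with the same added values, had 57.1 FPKM at A1, 53.8 at A2 and 10.3 at A3.

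The other loci named by this measure left the nearest places when the added value was changed. For OsAGO4a they were Sobic.003G187000 and Sobic.004G248100, and for OsAGO4b Sobic.003G445000 and Sobic.003G160200. For OsAGO18 they were Sobic.009G210900, Sobic.002G114300 and Sobic.010G014500, which with 0.1 FPKM added stood at places 670, 2576 and 854. Sobic.002G114300, for example, had 4.04 FPKM at A1, 4.26 at A2 and 0.00421 at A3, a steeper course than that of OsAGO18. For MET1 they were the Got1-like vesicle transport gene Sobic.002G362000, with 121 FPKM at A1, 97.7 at A2 and 13.9 at A3, Sobic.003G168425 and Sobic.009G227300.

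Among themselves, the OsAGO4b and OsAGO18 orthologs were farthest apart, at a distance of 1.49, and stayed so with 0.1 and 1 FPKM added. The closest pair was OsAGO18 and MET1, at 0.31 with 0.5 FPKM added and 0.23 with 0.1 FPKM, but with 1 FPKM it was OsAGO4a and MET1, at 0.28 against 0.43. The 2 genes of the AGO4 type were 0.80 apart, farther than OsAGO4a was from OsAGO18, at 0.69, or from MET1, at 0.48. This order held with 0.1 and 1 FPKM added, so by course over these stages the OsAGO4a ortholog was nearer to the MET1 and OsAGO18 orthologs than to the other gene of its own type.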

How the data were processed

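Total RNA of whole anthers was sequenced from 9 libraries, 3 per stage, prepared with a stranded kit. The authors trimmed reads with AdapterRemoval, used Bowtie2 2.2.9 to discard rRNA reads, and mapped what was left to the Phytozome v3.0.1 genome with STAR. They obtained expression values with StringTie 1.3.3b and ran cuffdiff between stages. The deposited FPKM, normalized for length and library size, give each locus a single number for each stage, in which the 3 replicates are combined. Read counts were not used here, so depth and precision per value are unknown.

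Values were analysed with python 3.11.15, numpy 2.4.6, pandas 2.3.3 and matplotlib 3.10.9. Log2 differences used a pseudocount of 0.5 FPKM and a threshold of 2-fold. The code that computes and calls them was checked on simulated data with known folds. The limma fit, the runs without single replicates and the paired fit that were planned were not run, since the table gives no value for single libraries. Starts had 1 added, which matched 744 RefSeq starts (assembly Sorghum_bicolor_NCBIv3), against 170 without it. Those RefSeq records were used for this check alone.

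Named genes were the 4 members, every gene of the pathway list, the 3 loci nearest in course to each member among loci with a mean of at least 1 FPKM, and the nearest locus with a gene ID on either side. Other genes were named after their values were seen. Gene matches come from the study's gene table, whose part used here holds 1594 genes. Members and lists were chosen with earlier results of these data known. The alternatives tried were pseudocounts of 0.1 and 1 FPKM, a mean of at least 1 FPKM, median-of-ratios scaling and quantile normalization, with a mean of at least 10 FPKM and the likeness at other pseudocounts added later.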

Additional observations from a re-analysis of the deposited data

How the results depend on the processing

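The log2 values of the 4 genes and of the 4 further listed genes kept their direction and their side of 2-fold in all 3 comparisons with pseudocounts of 0.1 and 1 FPKM, median-of-ratios scaling and quantile normalization. The median-of-ratios factors were close to 1, so that setting differed little from the main one. Over these settings the log2 of A3 over A1 ranged between -2.52 and -2.43 for Sobic.003G129500, -1.64 and -1.49 for Sobic.009G259900, -3.34 and -3.13 for Sobic.001G153600 and -3.36 and -2.82 for Sobic.002G056000. For the scarce PINHEAD match Sobic.001G136000 it ranged between 3.69 and 6.50, and for the DCL3 match Sobic.001G214000 between -6.37 and -4.66. Over all loci, a pseudocount of 0.1 FPKM gave 1419 loci at least 2-fold higher and 548 lower in A2 than in A1, against 896 and 228 with 0.5 FPKM. Among the fewer loci with a mean of at least 10 FPKM, a setting chosen after seeing the data, 291 were higher and 50 lower in A2 against A1, 1709 were higher and 1574 lower in A3 against A2, and 1811 were higher and 1784 lower in A3 against A1. Ranked among loci with a mean of at least 1 FPKM, the MET1 ortholog exceeded 65.7% of loci at A1, 60.5% at A2 and 13.5% at A3, the OsAGO18 ortholog 42.5% in A3 and the OsAGO4b ortholog 74.2% in A3. No paired analysis was possible because the columns carry no replicates. From these combined values alone, neither the differences between stages nor those between the genes can be set against an error. The depth at the lowest values, such as 0.281 FPKM for the DCL3 match in A3, is unknown.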
